A study of Mus musculus with 10 samples.

Results

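Blood vessel endothelial genes were followed in the developing inner ear of the mouse at embryonic day 12.5, in periotic tissue, which holds the otic vesicle and its surrounding mesenchyme. The set holds 37 genes of vascular endothelium, chosen by name, and all 37 were among the 19938 genes measured, each by 1 probe set. Each embryo gave 1 RNA sample, pooled from its left and right side, for an Affymetrix Mouse Gene ST 1.0 array. The 5 mutants carried a T-Cre-driven conditional knockout of Tbx1, a T-box transcription factor, and the 5 controls were T-Cre conditional Tbx1 heterozygotes of the same age, so that all embryos carried T-Cre and the controls were not wild type. T-Cre acts in the early mesoderm, the source of most vessel endothelium as well as of part of the mesenchyme, so the array cannot show in which of these tissues Tbx1 was lost. The values are log2 signals, on which a difference of 1 is a doubling.

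Endothelial cells line every vessel. Their growth is driven by vascular endothelial growth factor (VEGF), which signals through Kdr and is captured by Flt1, and their stability by angiopoietins, which signal through Tek with Tie1 at its side and Ptprb as the phosphatase that restrains it. Sprouts are led by tip cells, which make apelin (Apln), Esm1 and Dll4, while the apelin receptor Aplnr sits on other endothelial cells, veins in particular. Tbx1 itself is known for its regulation of Flt4, the receptor of lymphatic and sprouting endothelium.

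The signal of the set and the targeted gene were looked at first. All 37 genes read above background on all 10 arrays, and the lowest value of any of the 37 was 5.89. Background is 4.36, the highest log2 signal of 3 Y-linked probe sets in embryos read as female. The labels give no sex, so it was read from Xist against Y-linked genes, with 4 mutants and 3 controls read as female. The means of 17181 of all 19938 genes also lay above this background, so passing it does not show the cell type. Tbx1 read 8.398, 7.96, 7.58, 7.63 and 7.58 in mutants 1 to 5 and 8.89, 9.01, 8.84, 8.23 and 8.59 in controls 1 to 5. Its signal lay below the lowest control in 4 of the 5 mutants, with a log2 difference of -0.88 ± 0.17 (SE) and an adjusted p of 0.451 from limma. Without mutant 1, which read above control 4, the difference was -1.03, with an adjusted p of 0.11 from limma.

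The mean of all 37 genes differed between the groups by 0.033, less than its SD in either group. With the median of the 37 in each array in place of their mean, the groups differed by 0.16. Adgrl4, Flt1 and Ptprb read higher in all 5 mutants than in any control, and Aplnr read lower in all 5. The tip cell genes of the set (Apln, Esm1 and Dll4) and Flt4 had differences close to 0. Of the 37 genes, 0 passed the limma adjusted threshold of 0.05, in a comparison that called 0.01% of all genes, so none of these differences is a call. An unadjusted p under 0.05 was reached by 9 of the 37 (24.3%), against 7.82% of all genes. Of these 9, 7 were higher in the mutants (background 4.7%) and 2 were lower (background 3.11%). Groups did not overlap for 4 of the 37 (10.8%), against 1.83% of all genes, with 3 higher (background 1.27%) and 1 lower (background 0.552%). A difference above 0 was found for 21 of the 37 (56.8%), against 49.1% of all genes. The 37 genes were chosen for one cell type, though blood cells make some of them too. They share part of their spread from embryo to embryo, so these shares do not count independent events.

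**Figure D1:**
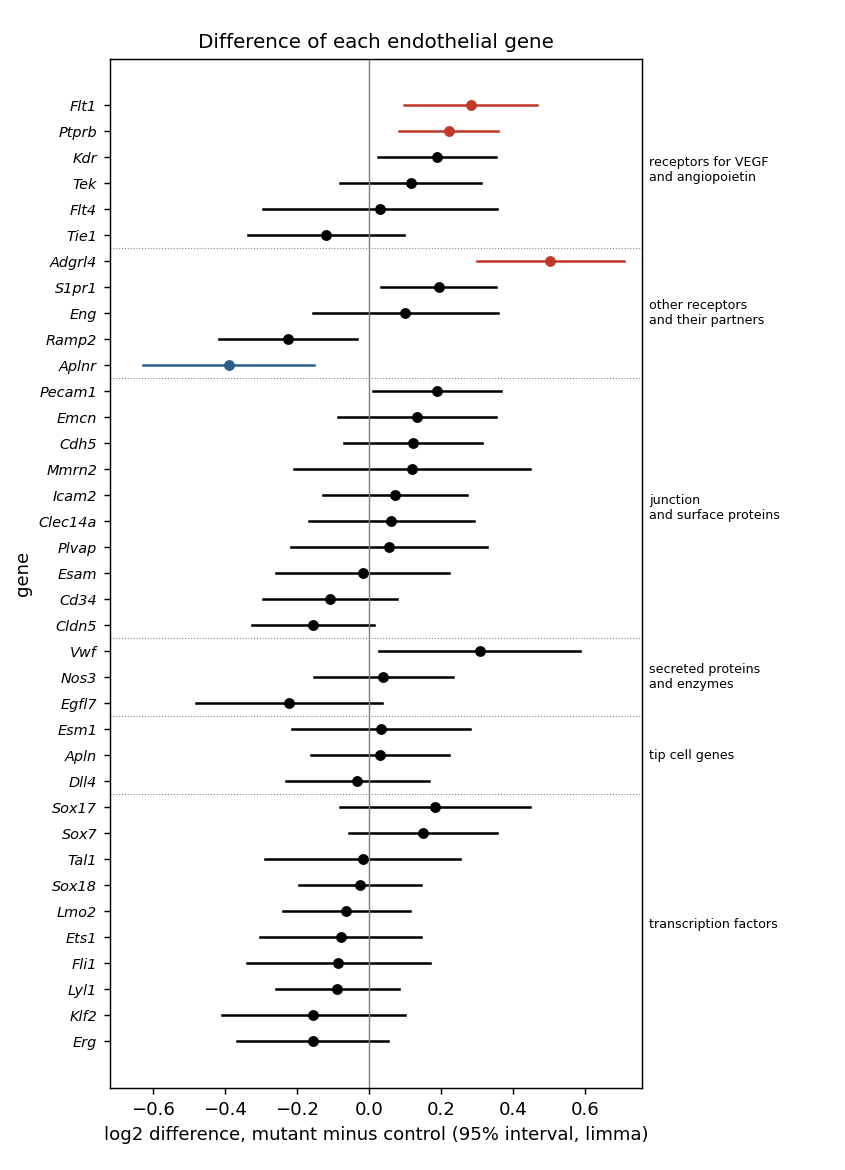
Log2 difference of each of the 37 genes, mutant minus control (x axis), with its 95% interval from limma, in 5 mutants and 5 controls, grouped by role (y axis). Coloured genes are those whose groups do not overlap: Adgrl4, Flt1 and Ptprb in red with differences of 0.504, 0.28 and 0.22, and Aplnr in blue with -0.39.

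The bases before the start of Adgrl4 and Flt1 are shown because these are the genes without overlap whose promoter window was found in the RefSeq table of GRCm38.p6. The table matched 19 of the 37 genes, with 24 windows. Each sequence is the 250 bases before the start, given 5′ to 3′ on the strand of the gene, with matches of the searched motifs in capitals.
Adgrl4: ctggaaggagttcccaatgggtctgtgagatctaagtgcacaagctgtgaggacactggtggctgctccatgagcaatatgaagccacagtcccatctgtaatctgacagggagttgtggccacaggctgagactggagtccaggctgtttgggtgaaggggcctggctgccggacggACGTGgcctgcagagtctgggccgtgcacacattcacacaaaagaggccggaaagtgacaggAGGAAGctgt
Flt1: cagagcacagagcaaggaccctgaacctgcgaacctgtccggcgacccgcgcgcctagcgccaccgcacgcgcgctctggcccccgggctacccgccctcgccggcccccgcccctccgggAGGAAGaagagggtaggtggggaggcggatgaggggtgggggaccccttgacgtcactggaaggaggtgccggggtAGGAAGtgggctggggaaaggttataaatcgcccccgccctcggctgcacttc
The window of Adgrl4 lies at chr3:151437632-151437881 on the plus strand and that of Flt1 at chr5:147726012-147726261 on the minus strand. In Adgrl4 the capitals mark ACGTG, the core letters of a hypoxia response element, 72 bases before the start, and AGGAAG, an ETS-type sequence, 10 bases before it. In Flt1 they mark AGGAAG at 129 and at 53 bases before the start. Searched on both strands, AGGAAG was found in 10 of the 24 windows (41.7%), which belong to 9 genes, and in 29.5% of all 32851 windows of the same length. ACGTG was found in 2 of the 24, those of Adgrl4 and Clec14a, and in 16.6% of all windows. The T-box sequence AGGTGTGA was found in 1 of the 24, in Erg, and in 1.12% of all windows. AACAAT, read by SOX factors, was found in 3 of the 24 (9.42% of all), and AGATAA, read by GATA factors, in 2 of the 24 (9.99% of all). A match of letters is not evidence of binding.

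Adgrl4, an adhesion G protein-coupled receptor of growing vessels, had the largest difference of the 37. It read 7.71, 7.497, 7.66, 7.48 and 7.59 in mutants 1 to 5 and 7.38, 7.07, 6.89, 6.94 and 7.14 in controls 1 to 5. Every mutant lay above the highest control, which was control 1. The group means were 7.59 ± 0.1 in the mutants and 7.08 ± 0.19 in the controls (SD, n = 5 each). The log2 difference was 0.504 (95% interval 0.301 to 0.71), or 142% of the control signal, with a limma adjusted p of 0.367, which misses the threshold. It was 0.51 among replicates 1 to 3 and 0.49 among replicates 4 and 5, a split named because immediate early genes separate these arrays in both groups.

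Flt1, which binds VEGF without much signalling and so limits its supply, read 8.34, 8.03, 7.98, 7.98 and 7.88 in mutants 1 to 5 and 7.84, 7.74, 7.73, 7.82 and 7.66 in controls 1 to 5. All mutants lay above all controls, with mutant 1 well above the other mutants and mutant 5 just above the highest control. The difference was 0.28 (interval 0.099 to 0.47), or 122% of the control signal, with a limma adjusted p of 0.569. It was 0.35 among replicates 1 to 3 and 0.19 among replicates 4 and 5. With each array centred on its own median the groups of Flt1 overlapped, while those of Adgrl4, Ptprb and Aplnr did not.

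Ptprb, the vascular endothelial protein tyrosine phosphatase, had the narrowest spread among the mutants of the 4 genes without overlap, with an SD of 0.050 there and 0.072 in the controls. It read 7.43, 7.33, 7.32, 7.33 and 7.29 in mutants 1 to 5 and 7.21, 7.14, 7.01, 7.13 and 7.103 in controls 1 to 5. The difference was 0.22 (interval 0.083 to 0.36) with a limma adjusted p of 0.569. In size it came to 117% of the control signal, and it was 0.24 among replicates 1 to 3 and 0.198 among replicates 4 and 5.

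Kdr, the main signalling receptor for VEGF, read 9.57, 9.36, 9.41, 9.55 and 9.22 in mutants 1 to 5 and 9.23, 9.33, 9.07, 9.29 and 9.24 in controls 1 to 5. Mutants 1 to 4 lay above the highest control and mutant 5 lay among the controls. The difference was 0.19 (interval 0.025 to 0.35), with an unadjusted p of 0.0271 and a limma adjusted p of 0.583. Flt4 read 7.81, 7.64, 7.21, 7.72 and 6.94 in mutants 1 to 5 and 7.54, 7.497, 7.197, 7.47 and 7.47 in controls 1 to 5. Mutants 1, 2 and 4 lay above all controls and mutant 5 below all controls, so its difference of 0.031 (interval -0.29 to 0.36) joins values that go both ways. For the angiopoietin receptors the differences were 0.12 ± 0.091 (SE) for Tek and -0.12 ± 0.1 (SE) for Tie1. Of the 6 receptors of this group, 5 had a difference above 0 and 0 passed the adjusted test.

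**Figure D2:**
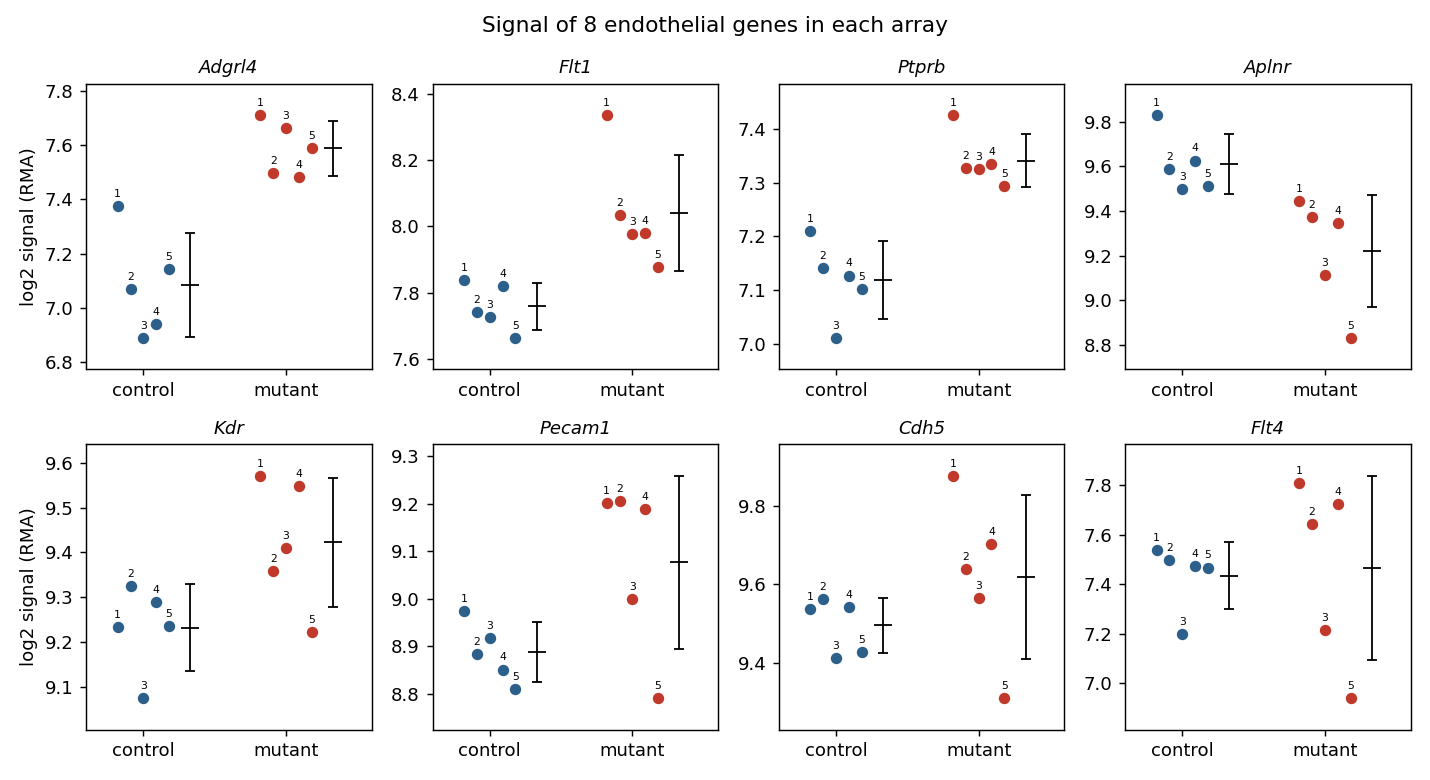
Log2 signal (y axis) of 8 endothelial genes in the 5 controls (blue) and 5 mutants (red); numbers are the replicate numbers, and the bar beside each group is its mean ± SD. In the upper row the groups do not overlap, and in the lower row mutant 5 lies among or below the controls.

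Aplnr, the apelin receptor, was the member with the largest difference below 0. It read 9.45, 9.37, 9.11, 9.35 and 8.83 in mutants 1 to 5 and 9.83, 9.59, 9.498, 9.63 and 9.51 in controls 1 to 5. Every mutant lay below the lowest control, and mutant 5 was the lowest of the 10 arrays. The group means were 9.22 ± 0.25 in the mutants and 9.61 ± 0.13 in the controls (SD, n = 5 each). The log2 difference was -0.39 (interval -0.63 to -0.15), which leaves 76.3% of the control signal, with a limma adjusted p of 0.569. It was -0.33 among replicates 1 to 3 and -0.48 among replicates 4 and 5. Without mutant 5 it was -0.29, a smaller difference than with all 5 mutants.

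The other receptors went in different directions. S1pr1, the receptor for sphingosine 1-phosphate that steadies new vessels, read 8.07, 8.0, 8.101, 8.16 and 8.01 in mutants 1 to 5 and 8.01, 7.87, 7.67, 7.96 and 7.85 in controls 1 to 5. Mutants 1, 3 and 4 lay above all controls and mutants 2 and 5 just below control 1, the highest of them, and the difference was 0.19 ± 0.074 (SE) with a limma adjusted p of 0.575. Ramp2, the partner that makes Calcrl a receptor for adrenomedullin, read 9.36, 9.38, 9.05, 9.17 and 9.12 in mutants 1 to 5 and 9.697, 9.29, 9.36, 9.46 and 9.39 in controls 1 to 5. Mutants 3, 4 and 5 lay below all controls, and the difference was -0.22 ± 0.089 (SE) with a limma adjusted p of 0.583. Eng, a co-receptor for BMP9 and related ligands, had 0.102 ± 0.12 (SE).

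Junction and surface genes showed no common direction. Pecam1, an adhesion molecule at the contacts between endothelial cells, read 9.203, 9.21, 9.0, 9.19 and 8.79 in mutants 1 to 5 and 8.98, 8.88, 8.92, 8.85 and 8.81 in controls 1 to 5. Mutants 1 to 4 lay above all controls and mutant 5 below all of them, for a difference of 0.19 ± 0.083 (SE) and a limma adjusted p of 0.602. Cdh5, the cadherin of endothelial junctions, read 9.88, 9.64, 9.57, 9.703 and 9.31 in mutants 1 to 5 and 9.54, 9.56, 9.41, 9.54 and 9.43 in controls 1 to 5. The same 4 mutants lay above all controls, by little in the case of mutant 3, and mutant 5 lay below, for a difference of 0.12 ± 0.089 (SE). Cldn5, the tight junction claudin of endothelium, read 8.36, 8.37, 8.33, 8.27 and 8.12 in mutants 1 to 5 and 8.68, 8.37, 8.45, 8.403 and 8.33 in controls 1 to 5. Mutants 3, 4 and 5 lay below all controls, mutant 3 by less than the second decimal shows, for a difference of -0.16 ± 0.078 (SE) and an unadjusted p of 0.0692. The other 7 genes of this role were Emcn (0.13), Mmrn2 (0.12), Icam2 (0.073), Clec14a (0.062), Plvap (0.056), Esam (-0.018) and Cd34 (-0.11), each given as a log2 difference. Of the 10, 7 had a difference above 0, and 0 passed the adjusted test.

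Among secreted proteins and enzymes, Vwf, the clotting glycoprotein stored in endothelium and platelets, read 8.33, 7.91, 7.801, 7.68 and 7.48 in mutants 1 to 5 and 7.62, 7.61, 7.57, 7.39 and 7.47 in controls 1 to 5. Mutants 1 to 4 lay above all controls, with mutant 1 the highest, and mutant 5 lay among the controls. The difference was 0.31 ± 0.13 (SE) with a limma adjusted p of 0.589, and it was 0.41 among replicates 1 to 3 and 0.15 among replicates 4 and 5. Egfl7, a matrix protein secreted by endothelium, had -0.22 ± 0.12 (SE), and Nos3, the endothelial nitric oxide synthase, 0.040 ± 0.090 (SE).

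The 3 tip cell genes did not differ between the groups beyond the spread of the embryos. Apln, the ligand of Aplnr, read 7.49, 7.31, 7.39, 7.396 and 7.298 in mutants 1 to 5 and 7.35, 7.35, 7.53, 7.44 and 7.05 in controls 1 to 5. Esm1, a proteoglycan secreted by tip cells, read 6.31, 6.36, 6.28, 6.22 and 6.14 in mutants 1 to 5 and 6.66, 6.21, 6.14, 6.202 and 5.93 in controls 1 to 5. Dll4, the Notch ligand of tip cells, read 7.15, 7.19, 7.02, 6.82 and 7.03 in mutants 1 to 5 and 7.24, 7.22, 6.93, 6.93 and 7.06 in controls 1 to 5. Groups overlapped in all 3, and the highest Esm1 value was that of control 1. The log2 differences and their intervals were 0.031 (-0.16 to 0.22) for Apln, 0.034 (-0.21 to 0.28) for Esm1 and -0.032 (-0.23 to 0.17) for Dll4. The sign of all 3 turned when single arrays were left out. The mean of the tip cell genes minus the mean of the 34 other members, set to 0 in the controls, was -0.12, -0.0074, 0.013, -0.14 and 0.13 in mutants 1 to 5 and 0.081, 0.017, 0.024, 0.012 and -0.13 in controls 1 to 5. Both groups spread to either side of 0, and their means differed by -0.024, less than the SD of 0.080 in the controls and 0.11 in the mutants.

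Transcription factors of endothelium had small differences. Sox17, an arterial SOX factor, read 6.49, 6.25, 6.61, 6.298 and 6.18 in mutants 1 to 5 and 6.04, 6.44, 6.43, 5.89 and 6.11 in controls 1 to 5, with wide overlap and a difference of 0.18 ± 0.12 (SE). Klf2, which responds to blood flow, read 7.79, 7.66, 7.59, 7.27 and 7.25 in mutants 1 to 5 and 7.76, 7.82, 7.77, 7.596 and 7.39 in controls 1 to 5, for a difference of -0.15 ± 0.12 (SE). In both groups the values of Klf2 numbered 4 and 5 were the lowest, the arrays in which immediate early genes were also low. The remaining differences were 0.15 for Sox7, -0.025 for Sox18, -0.16 for Erg, -0.085 for Fli1 and -0.079 for Ets1, the last 3 being ETS factors. Tal1, Lyl1 and Lmo2, which endothelium shares with blood progenitors, had -0.017, -0.087 and -0.063. Of the 10 factors, 8 had a difference below 0 and 0 reached an unadjusted p under 0.05. The sign of each of these 8 turned in at least 1 alternative.

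**Figure D3:**
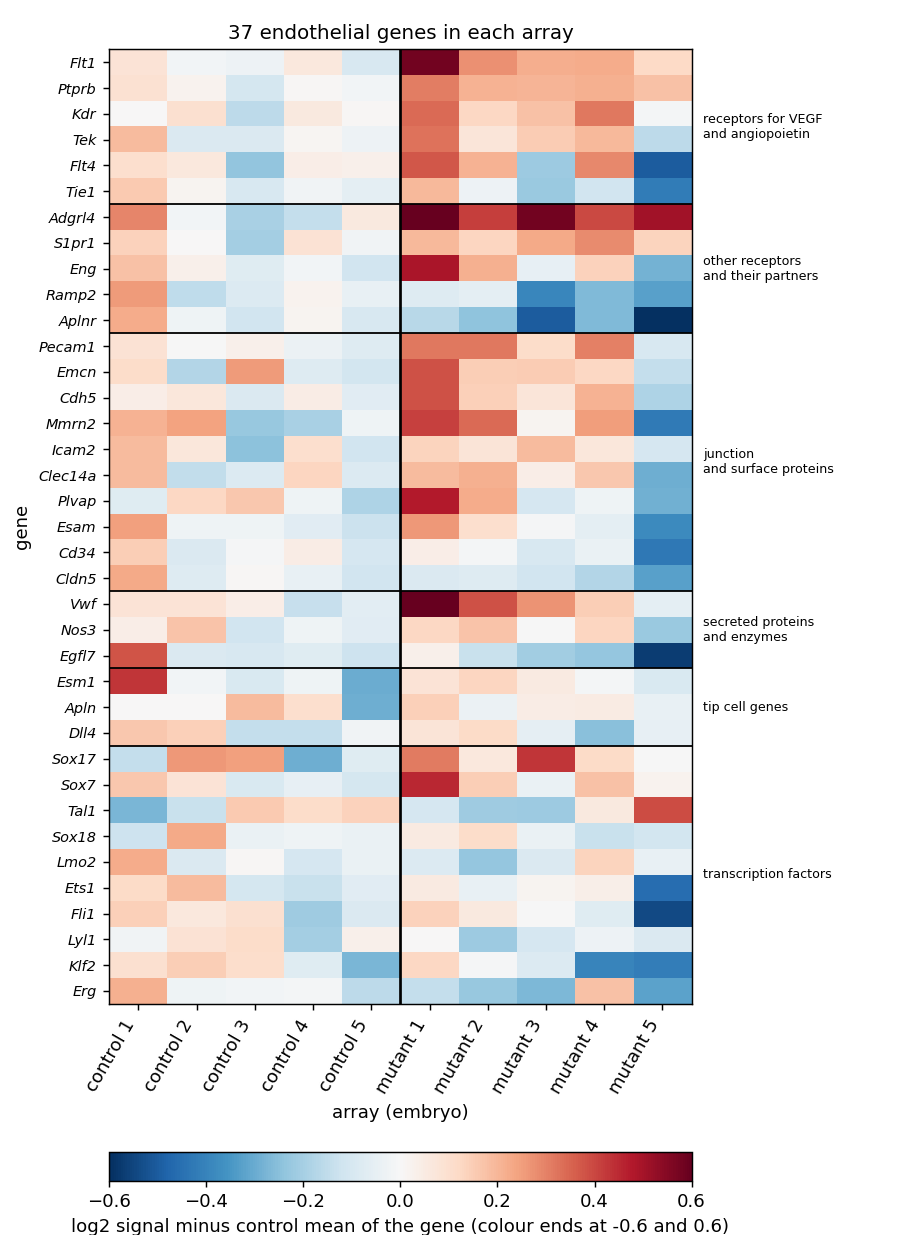
Log2 signal of each of the 37 genes (rows, grouped by role) in each array (columns, controls left and mutants right), as the difference from the control mean of that gene; the colour scale ends at -0.6 and 0.6. The column of mutant 1 is mostly red and that of mutant 5 mostly blue, and the rows of Adgrl4, Flt1 and Ptprb are red and that of Aplnr blue across the 5 mutants.

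The 37 genes shared part of their spread from embryo to embryo. The mean of all 37, set to 0 in the controls, was 0.21, 0.077, 0.0040, 0.057 and -0.18 in mutants 1 to 5 and 0.12, 0.028, -0.036, -0.035 and -0.079 in controls 1 to 5. Mutant 1 was the highest and mutant 5 the lowest of the 10 arrays, so the mutants spread on both sides of the controls, and the group means differed by 0.033 against an SD of 0.14 in the mutants and 0.079 in the controls. Mutant 5 was the lowest mutant for 28 of the 37 genes and the lowest of all 10 arrays for 19, whereas it was lowest for 17.3% of all genes. Mutant 1 was the highest of the 10 arrays for 15 of the 37, against 11.8% of all genes, and control 1 for 11, against 13.99%. The median SD of the 37 genes was 0.19 in the mutants, 0.12 in the mutants without mutant 5 and 0.14 in the controls. In bulk tissue, fewer endothelial cells and less RNA per endothelial cell cannot be told apart. By role, the group means of the receptors for VEGF and angiopoietin differed by 0.12, those of the junction and surface proteins by 0.048 and those of the transcription factors by -0.033.

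Leaving out mutant 5 raised the count of genes without overlap from 4 to 8, by the addition of Cdh5, Kdr, Pecam1 and Vwf, while the share of all genes without overlap went from 1.83% to 3.08%. A count of this kind can stay or grow, but not shrink, when an array is left out. The count at an unadjusted p under 0.05 went from 9 to 12, where the share of all genes went from 7.82% to 7.41%. The 0 calls at the adjusted threshold remained 0. Without mutant 1 the group means of all 37 differed by -0.011 and without mutant 5 by 0.087. The direction of the mean over the set thus turned with 1 array.

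**Figure D4:**
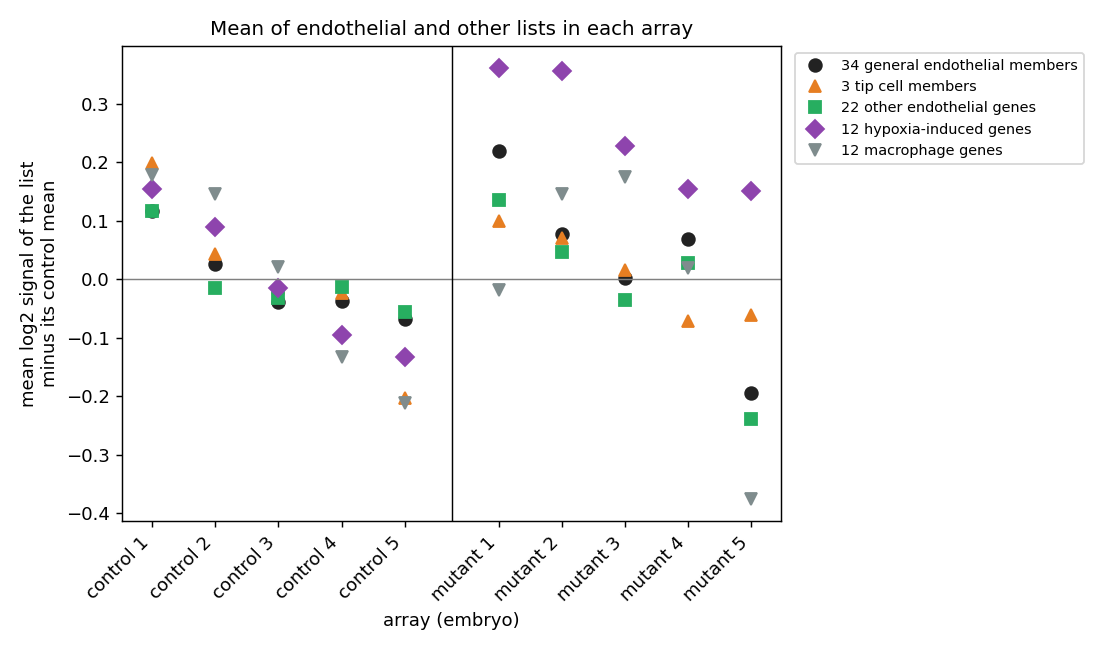
Mean log2 signal of 5 gene lists in each array (x axis), minus the mean of the list in the controls (y axis); each symbol is 1 list in 1 embryo. The 34 general members and the 22 other endothelial genes lie close together in most arrays and are lowest in mutant 5, while the hypoxia-induced genes lie above 0 in all 5 mutants.

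The genes were also set against the endothelial signal of the same embryo, by subtracting in each array the mean of the other general members. On this relative log2 scale, set to 0 in the controls, Aplnr was -0.396, -0.33, -0.52, -0.34 and -0.602 in mutants 1 to 5 and 0.11, -0.052, -0.078, 0.054 and -0.031 in controls 1 to 5. Adgrl4 was 0.42, 0.35, 0.59, 0.34 and 0.72 in mutants 1 to 5 and 0.18, -0.042, -0.16, -0.11 and 0.13 in controls 1 to 5. The SD of the mutants went from 0.25 on the log2 signal to 0.12 on the relative scale for Aplnr, and from 0.1 to 0.17 for Adgrl4. It was smaller on the relative scale for 27 of the 37 and larger for 10, Adgrl4, Ptprb and S1pr1 among these. Flt1 ranged over 0.16 to 0.37 in the mutants and -0.044 to 0.1 in the controls, and Ptprb over 0.090 to 0.38 and -0.071 to 0.054. Pecam1, whose groups overlapped before, ranged over 0.098 to 0.25 and -0.031 to 0.070, and Vwf over 0.084 to 0.597 and -0.11 to 0.080. Below the controls, Egfl7 ranged over -0.38 to -0.19 against -0.12 to 0.27 and Cldn5 over -0.32 to -0.12 against -0.11 to 0.12. In all, 8 of the 37 did not overlap on this scale, 5 higher and 3 lower, where 0.893% of all genes did (0.145% higher and 0.747% lower). For genes outside endothelium the subtraction adds the spread of the endothelial mean, so that share is not a like comparison, and nothing is read from it. A relative value shows unequal change among these genes and not which of them changed.

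**Figure D5:**
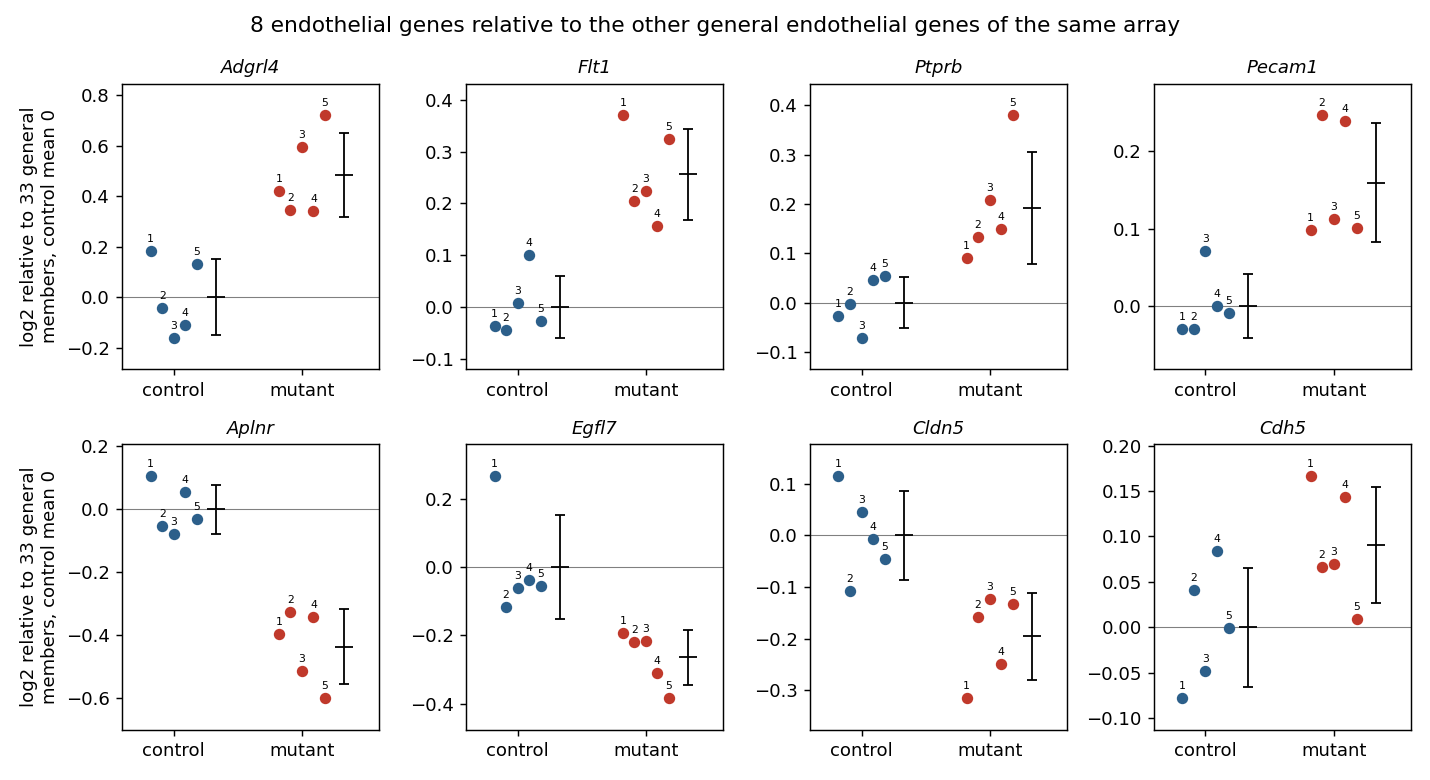
Log2 signal of 8 endothelial genes relative to the mean of the other 33 general members in the same array (y axis, control mean 0), in 5 controls (blue) and 5 mutants (red), numbered by replicate, with mean ± SD beside each group. The mutants lie above the controls for Adgrl4, Flt1, Ptprb and Pecam1 and below them for Aplnr, Egfl7 and Cldn5, and the groups of Cdh5 overlap.

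The genes that act with these receptors were read from lists chosen by name, and 0 members of any list passed the adjusted test. Among 19 ligands and partners of the receptors, 11 had a difference above 0, with a median of 0.081 against -0.0021 for all genes. Adm, the adrenomedullin ligand of the Calcrl and Ramp2 receptor, had 0.36 ± 0.14 (SE), and Angpt2, the angiopoietin of remodelling vessels, had 0.18 ± 0.097 (SE). Vegfa stood at 0.23, Vegfc, the ligand of Flt4, at 0.18, Pgf, which binds Flt1 and not Kdr, at -0.18, and Apela, the second ligand of Aplnr, at -0.16, all as log2 differences. Of 12 Notch genes, 9 had a difference above 0 (median 0.043), against 49.1% of all genes. They were led by Hey2, a target of Notch in arteries and also in the otic epithelium, at 0.45 ± 0.11 (SE) without overlap between groups. Nrarp, a feedback inhibitor, had 0.41 ± 0.16 (SE). The mean of the 12, set to 0 in the controls, ran 0.041 to 0.15 in the mutants and -0.058 to 0.042 in the controls. Its group means differed by 0.099, against an SD of 0.041 in the controls and 0.046 in the mutants. Of 10 tip cell genes outside the set, 7 had a difference above 0 (median 0.038). Their mean, set to 0 in the controls, ran 0.020 to 0.22 in the mutants and -0.12 to 0.12 in the controls. The group means of this list differed by 0.11, more than its SD of 0.093 in the controls and 0.091 in the mutants. Kcne3, a potassium channel subunit, had 0.65 ± 0.19 (SE), with 0.93 among replicates 1 to 3 and 0.23 among replicates 4 and 5, and Trp53i11 had 0.27 ± 0.104 (SE).

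Other endothelial genes gave no shift. Of 22 further genes, 8 had a difference above 0 with a median of -0.015, and the 2 of smallest p were Adgrf5, an adhesion receptor, at 0.27 ± 0.1 (SE) and Rasip1, which is needed for vessel lumens, at -0.202 ± 0.12 (SE). The mean of this list ran -0.24 to 0.14 in the mutants and -0.056 to 0.12 in the controls, with mutant 5 the lowest, as for the 37. Of 14 other endothelial transcription factors, 4 had a difference above 0 (median -0.054), with Foxc2 at -0.28 ± 0.16 (SE) and Ets2 at -0.14 ± 0.089 (SE). Of 10 arterial genes, 7 were above 0 (median 0.021), among them Bmx, whose mean was not above background. Hey2 led again, and Nrp1, a VEGF co-receptor, had 0.103 ± 0.082 (SE). Of 4 venous genes, 1 was above 0 (median -0.073), with Nr2f2, the regulator of venous identity, at 0.16 ± 0.079 (SE) and Ephb4 at -0.12 ± 0.11 (SE). Of the 5 lymphatic genes measured, 4 were above 0 (median 0.13), with Lyve1, shared with macrophages, at 0.33 ± 0.18 (SE) and Itga9 at -0.16 ± 0.11 (SE). Pdpn, Prox1 and Reln had 0.042, -0.062 and 0.058 among replicates 1 to 3 and 0.28, 0.24 and 0.25 among replicates 4 and 5. Lyve1 had 0.304 and 0.36 in the same splits. Of 10 barrier genes of brain vessels, of which 1, Sox17, is also in the set of 37, 6 were above 0 (median 0.1), with Abcb1a, a drug efflux pump, at 0.19 ± 0.073 (SE) without overlap between groups and Slc2a1, a glucose transporter that hypoxia also induces, at 0.27 ± 0.12 (SE).

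Markers of the other cells in the tissue were read beside these values. Means of a list are given as the difference from its control mean, and En2 was the one gene of these lists that did not read above background on all 10 arrays. Neural tube genes were above 0 for 12 of 12 (median 0.47) and 4 reached an unadjusted p under 0.05 (7.82% of all genes), with Neurod4 at 0.74 and Elavl4 at 0.56. Their mean ran 0.075 to 1.597 in the mutants and -0.503 to 0.396 in the controls. The highest value was in mutant 5, the array in which the endothelial mean was lowest, and mutants 1 to 4 lay within the range of the controls. Periotic mesenchyme genes were above 0 for 1 of 10 (median -0.11), with Pdgfra at -0.15 and Col1a2 at -0.16, and their mean ran -0.36 to 0.0053 in the mutants and -0.11 to 0.058 in the controls, the lowest again in mutant 5. Pericyte and smooth muscle genes were above 0 for 6 of 13 (median -0.045) and 5 reached an unadjusted p under 0.05 (7.82% of all genes), with Ndufa4l2 at 0.304 ± 0.098 (SE) and Cspg4 at -0.32 ± 0.095 (SE), and their mean ran -0.12 to 0.16 in the mutants and -0.16 to 0.1 in the controls. Macrophage genes were above 0 for 5 of 12 (median -0.025), with C1qa at -0.12, Aif1 at -0.066 and a mean of -0.38 to 0.17 in the mutants and -0.21 to 0.18 in the controls. Platelet genes were below 0 for 6 of the 6 measured out of 10 listed (median -0.34), among them Itga2b at -0.41 ± 0.13 (SE) and Pf4 at -0.41 ± 0.15 (SE). Of these 6, 2 reached an unadjusted p under 0.05 (7.82% of all genes). Their mean ran -0.47 to -0.21 in the mutants and -0.34 to 0.58 in the controls, the highest in control 3. The part of platelets in the signal of Vwf, which they carry too, was not tested. Erythroid genes were above 0 for 2 of 9 (median -0.15), with Tfrc at 0.32, Hba-x at -0.26 and a mean of -0.35 to 0.071 in the mutants and -0.44 to 0.64 in the controls. Hypoxia-induced genes, none of them in the set of 37 but Vegfa, Adm and Slc2a1 among those already named, were above 0 for 11 of 12 (median 0.32), with 7 at an unadjusted p under 0.05 (7.82% of all genes) and 3 without overlap (1.83% of all genes), among them Ldha at 0.33 ± 0.053 (SE) and Pgk1 at 0.36 ± 0.062 (SE), and their mean ran 0.15 to 0.36 in the mutants and -0.13 to 0.16 in the controls, so that control 1 reached the lowest mutants. Immediate early genes were above 0 for 6 of 14 (median -0.041), with Junb at -0.198, Ier3 at 0.094 and a mean of -0.84 to 0.61 in the mutants and -0.799 to 0.64 in the controls, low in the arrays numbered 4 and 5 of both groups. The part of hypoxia-induced, neural and mesenchymal signal in the endothelial differences was not tested. Without mutant 5, the difference of Adgrl4 was 0.504, that of Flt1 0.32, that of Ptprb 0.23 and that of Aplnr -0.29, against 0.504, 0.28, 0.22 and -0.39 with it.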

How the data were processed

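Each of the 10 embryos was measured on 1 array, so precision rests on how many arrays there are. The authors computed the deposited log2 values by RMA with Expression Console 1.1 of Affymetrix, as the submitters' processing notes name it, and the scale follows from the values (array medians 6.19 to 6.27). The version of the probe file is not stated in these sources. Probe sets took their gene from the platform annotation, with symbols updated by gene id to RefSeq (GRCm38.p6). Of 35557, 21789 had 1 symbol and were tested. Those naming several genes, 1621 in number, were left out, among them 1 that names Ramp2 beside another gene. A gene was read from its probe set of highest mean.

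The groups were tested by limma 3.58.1 under R 4.3.3, two-sided, with lmFit and a trended eBayes, and p-values were adjusted by Benjamini-Hochberg over the 21789. Intervals are at the 95% level. The fit was tested on simulated data. Members, lists and alternatives were chosen with earlier results of these data known. Values in every array are given for the 10 members of smallest p and for Apln, Esm1, Dll4, Pecam1, Cdh5, Kdr, Flt1, Flt4, Klf2 and Sox17. For each other list the 2 genes of smallest p among those above background are the rule, and Vegfa, Vegfc, Pgf and Apela were added after their values were seen. Alternatives changed the moderation, weights, sex term, scaling, filter and probe set choice and left out arrays. Deviations from the group mean of same-numbered mutants and controls correlated at 0.122 to 0.247, each above the 0.1 taken as the mark of paired arrays. Those of different numbers correlated at -0.392 to 0.382, so values above 0.1 were not limited to a shared number. Only 2 of the 5 mutants had their own number as best match, and what a number stands for is not in the labels.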

Additional observations from a re-analysis of the deposited data

Results flagged for a closer look

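In 17 of 194 groups of 5 values, 1 array lay far from the other 4 by Dixon's rule, where chance gives about 10. Among the 37 genes these were Flt4 in control 3 (log2 signal 7.197), Sox18 in control 2 (8.665), Esam and Egfl7 in control 1 (8.007 and 8.611), and Ets1 and Cd34 in mutant 5 (8.263 and 9.31). Esam, Egfl7 and Sox18 were high in their array, and Flt4, Ets1 and Cd34 were low. Among genes of the other lists they were Angpt2 in control 3 (5.831), Nrarp in control 2 (7.539), Lyve1 in control 1 (8.32), Itga2b in mutant 2 (6.459), and Foxc2, Lyve1, Pf4 and Pdgfra in mutant 5 (8.694, 7.406, 6.212 and 11.3). Among means of lists, given as the difference from the control mean, they were the other endothelial genes in control 1 (0.117), and in mutant 5 the neural tube genes (1.597) and the periotic mesenchyme genes (-0.3573).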

How the results depend on the processing

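Under all 22 alternatives limma called 0 of the 37 genes at the adjusted threshold. At an unadjusted p under 0.05 it called 3 to 12 (9 as reported, where it called 7.82% of all genes). With single arrays left out the count was 6 to 12, the 12 being without mutant 5 (7.41% of all genes). The count was 3 in only the replicates numbered 4 and 5 (4.05%), 8 in only the replicates 1 to 3 (6.16%) and 10 without mutants 4 and 5 (7.43%). In the fit with a replicate block, which pairs arrays by number, the count was 11, adding Cldn5 and Egfl7. The share of all genes was not taken for the block, so this count stands without its background. With the block the limma adjusted p was 0.227 for Adgrl4 and 0.085 for Tbx1, which changed no call. Genes without overlap, 4 as reported, numbered 4 to 8 with single arrays left out, 8 without mutants 4 and 5 (5.84% of all genes), 9 in only the replicates 1 to 3 (12.2%) and 14 in only the replicates 4 and 5 (35.2%), and with fewer arrays such a count cannot fall. The mean of the 37 differed by -0.011 to 0.087 with single arrays left out and by 0.097 without mutants 4 and 5. The median of the 37 in each array, taken in place of their mean, differed by 0.16. Tip cell minus general ran -0.063 to 0.0051 with single arrays left out. With the tip cell genes outside the set in place of those in it, tip cell minus general was 0.080. The sign of the difference turned in at least 1 alternative for 18 of the 37 and in none for 19, which include Adgrl4, Flt1, Ptprb, Kdr, Aplnr and Ramp2. Of members whose sign turned when single arrays were left out, the ranges were Flt4 -0.055 to 0.16, Tal1 -0.12 to 0.034, Plvap -0.049 to 0.14, Sox18 -0.058 to 0.032, Dll4 -0.069 to 0.023, Esam -0.087 to 0.074, Fli1 -0.14 to 0.030, Ets1 -0.11 to 0.016, Apln -0.042 to 0.078, Esm1 -0.040 to 0.14. The turned values, list genes included, were, with array weights, Esam 0.064, Fli1 0.0066 and Dll4 0.0064; with sex in the fit, Esam 0.022; in only the replicates 1 to 3, Esam 0.054, Sox18 0.019, Apln -0.014, Esm1 -0.019 and Ephb4 0.023; in only the replicates 4 and 5, Flt4 -0.14, Eng -0.0066, Erg 0.013, Tal1 0.101, Lyl1 0.029, Lmo2 0.12, Clec14a -0.087, Plvap -0.053, Icam2 -0.012, Nos3 -0.00028 and Nrp1 -0.15; and without mutants 4 and 5, Esam 0.12, Sox18 0.040, Fli1 0.064, Ets1 0.0092, Dll4 0.047, Klf2 0.012, Aif1 0.0019 and Junb 0.0093. The cause of these turns was not tested. Signals of all 37 were above background. Esm1 and Sox17, with control means of 6.23 and 6.18, lay near the array medians of 6.19 to 6.27. Whether low signal limits these genes was not tested.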
